A study of Sus scrofa with 6 samples.

Results

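Kynurenine route and NAD synthesis enzymes turn tryptophan into kynurenine and, at the far end of the route, into the coenzyme NAD. The liver does most of this work in mammals. TDO2 and IDO2 open the indole ring of tryptophan, KMO and KYNU carry kynurenine on toward quinolinate, and KYAT1 and KYAT3 divert it to kynurenic acid. ACMSD removes an intermediate before quinolinate forms, whereas QPRT and NADSYN1 use quinolinate to build NAD. The 9 genes were chosen by name and Ensembl identifier, and all 9 were found among the 26733 genes of the table.

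The livers came from newborn Landrace × Yorkshire piglets whose mothers ate tryptophan on 1 of 2 daily schedules. High-Low sows received a morning meal with 0.39% tryptophan and an afternoon meal with 0.13%, and 2×Trp sows received 0.26% in both meals. Each maternal diet had 3 RNA-seq libraries of newborn liver, and the study's title asks which liver genes go with harmful effects of tryptophan in the diet. Whether the libraries of a diet came from different piglets or litters is not in the labels, and the p-values therefore reflect only how these samples spread, which may be technical.

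Levels are in FPKM, a fragment count divided by gene length and by library size. The libraries' FPKM totals lay between 956426 and 1230288. The depth behind each value is unknown, since FPKM multiplied by the listed gene length did not fall on steps of whole reads. The listed lengths of the 9 genes run from 140 for IDO2 to 4568 for KYNU and may not be those behind the FPKM values, so levels and ratios between genes hold only as far as the authors' lengths do, whereas a gene's comparison between libraries does not depend on its length. Of the 8 hepatocyte markers 7 were matched, and their summed level was 42380 to 65290 FPKM in High-Low and 43900 to 59330 FPKM in 2×Trp. UMOD, a kidney tubule gene, was listed at 0 in all 6 libraries. The 6 matched endothelial markers of 8 summed to 56.6 to 80.7 FPKM in High-Low and 81.9 to 121 FPKM in 2×Trp, and the 5 matched macrophage markers of 9 to 247 to 444 FPKM and 413 to 572 FPKM in the same order. No matched marker of these 3 cell types was at 0 in every library. In such bulk tissue, fewer cells of a type and less RNA per cell cannot be told apart.

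TDO2 was the most variable of the 9 genes on the log2(FPKM + 1) scale and among the most variable genes tested on it. TDO2 (ENSSSCG00000008868, susScr3 chromosome 8, 46704219 to 46721468, plus strand) is the haem dioxygenase that commits tryptophan to the kynurenine route in hepatocytes. It had 124, 31.4 and 73.4 FPKM in High-Low libraries 1, 2 and 3, against 33.2, 88.4 and 152 FPKM in 2×Trp libraries 1, 2 and 3. High-Low 2 and 2×Trp 1 were low, High-Low 1 and 2×Trp 3 were high, and the groups overlapped. The highest library had 4.84 times the level of the lowest. By that measure KYNU varied more, at 8.07 times. Its levels were 0.252 to 2.04 FPKM, where the 1 added before the log2 narrows differences. Within groups the SD of log2(FPKM + 1) was 1.04 for TDO2 and 0.32 for the median gene. An SD larger than that of TDO2 was found for 2.53% of the 10901 genes tested.

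IDO2 (ENSSSCG00000023054, chromosome 17, 10852567 to 10862563, plus strand) encodes another dioxygenase of tryptophan, a relative of IDO1. It had 21.7, 27.0 and 12.2 FPKM in the High-Low libraries and 20.6, 19.0 and 14.5 FPKM in the 2×Trp libraries, with overlapping groups. TDO2 exceeded IDO2 in all 6 libraries, by 5.72, 1.16 and 6.01 times in High-Low and by 1.61, 4.65 and 10.5 times in 2×Trp. The pair came closest where TDO2 was low, in High-Low 2 and 2×Trp 1. IDO1, the interferon-induced dioxygenase, whose annotated span overlaps that of IDO2 on the opposite strand, was listed at 0.208 FPKM or less in every library. No source used here says whether reads were assigned by strand. The listed length of IDO2 is 140, and only 2.37% of the genes tested have a shorter one, so its level per length is uncertain.

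KMO (ENSSSCG00000025686, chromosome 10, 14889942 to 14937373, plus strand) is the mitochondrial hydroxylase that makes 3-hydroxykynurenine. Its levels were 68.3, 17.7 and 38.6 FPKM in High-Low and 30.6, 34.6 and 44.7 FPKM in 2×Trp. Both the highest and the lowest value lay in High-Low, and the 2×Trp values fell between them. KYNU (ENSSSCG00000015673, chromosome 15, 9609578 to 9821863, minus strand), the hydrolase of the next step, was the least abundant of the 9 genes in every library. It had 2.04, 0.731 and 0.670 FPKM in High-Low, against 0.252, 1.06 and 1.36 FPKM in 2×Trp. KMO exceeded KYNU 33.5, 24.3 and 57.6 times in High-Low and 121, 32.5 and 32.9 times in 2×Trp. KYNU has a listed length of 4568, longer than that of 98.2% of the genes tested, and no source used here says how the authors defined that length.

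The kynurenine aminotransferases KYAT1 (ENSSSCG00000005663, chromosome 1, 303188689 to 303225560, minus strand) and KYAT3 (ENSSSCG00000006925, chromosome 4, 139698110 to 139732899, plus strand) form kynurenic acid and also act on other amino acids. KYAT1 had 23.0, 35.5 and 37.9 FPKM in High-Low and 57.0, 32.8 and 49.1 FPKM in 2×Trp. High-Low 1 was lowest and 2×Trp 1 highest, and the groups overlapped through 2×Trp 2. KYAT3 had 63.2, 41.4 and 40.9 FPKM in High-Low, against 46.8, 47.1 and 45.7 FPKM in 2×Trp. It was the steadiest of the 9 genes, with 1.55 times between the extreme libraries, and only High-Low 1 stood clear of the others. Summed, the pair had 80.6 ± 4.89 FPKM in High-Low and 92.9 ± 12.1 FPKM in 2×Trp (SD, n = 3 each).

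ACMSD (ENSSSCG00000015699, chromosome 15, 19522117 to 19538477, plus strand) encodes the decarboxylase that competes with quinolinate formation. It was low, at 4.12, 2.52 and 3.47 FPKM in High-Low and 2.67, 5.09 and 2.71 FPKM in 2×Trp. QPRT (ENSSSCG00000027454, chromosome 3, 18589508 to 18591847, minus strand), which joins quinolinate to phosphoribose, had 48.9, 86.6 and 58.9 FPKM in High-Low and 74.6, 97.4 and 71.4 FPKM in 2×Trp. QPRT exceeded ACMSD in all 6 libraries, by 11.9, 34.4 and 17.0 times in High-Low and by 27.9, 19.1 and 26.4 times in 2×Trp. NADSYN1 (ENSSSCG00000012859, chromosome 2, 725643 to 739229, minus strand) performs the last amidation to NAD. Its levels were 10.4, 18.5 and 12.5 FPKM in High-Low and 12.7, 11.7 and 19.8 FPKM in 2×Trp, and the groups of all 3 genes overlapped.

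**Figure D1:**
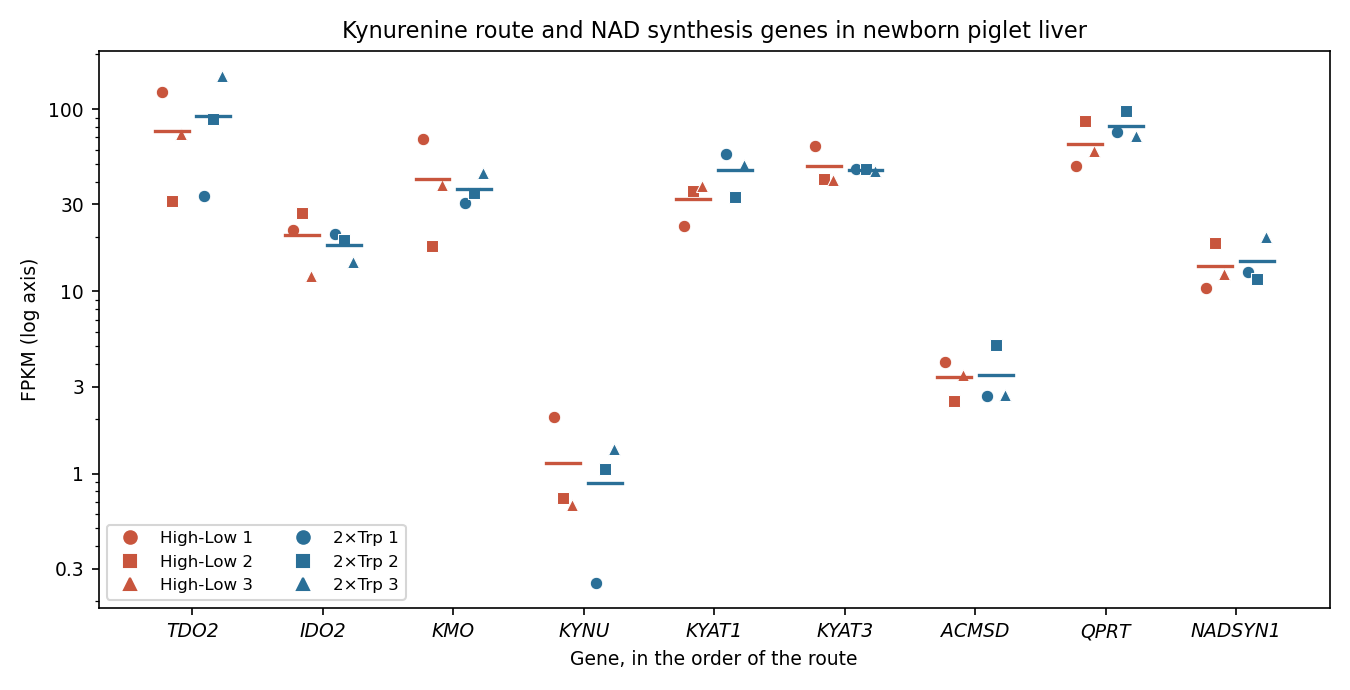
FPKM (log axis) of the 9 genes in route order, with 3 High-Low libraries (red) left of 3 2×Trp libraries (blue); marker shape gives the library number and bars are group means. TDO2 spans 31.4 to 152 FPKM and KYNU stays at or under 2.04 FPKM, and the groups overlap for every gene.

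Averaged over the 6 libraries, levels ran from 83.7 FPKM for TDO2 and 73.0 FPKM for QPRT down to 3.43 FPKM for ACMSD and 1.02 FPKM for KYNU. KYAT3, KYAT1 and KMO lay at 47.5, 39.2 and 39.1 FPKM, and IDO2 and NADSYN1 at 19.2 and 14.3 FPKM. The order in FPKM was the same in every library only at the bottom, where it also rests on listed lengths of 525 for NADSYN1, 237 for ACMSD and 4568 for KYNU. NADSYN1 exceeded ACMSD by 1.78 ± 0.62 on the log2(FPKM + 1) scale and ACMSD exceeded KYNU by 1.16 ± 0.41, each in 6 of 6 libraries (SD, n = 6). The neighbours TDO2 and QPRT kept their order in 3 of 6 libraries and KYAT1 and KMO in 3 of 6. KYAT3 stood above KYAT1 in 4 of 6, and IDO2 above NADSYN1 in 4 of 6, so these neighbours did not differ beyond their spread. QPRT over KYAT3 and KMO over IDO2 held in 5 of 6, at 0.59 ± 0.52 and 0.93 ± 0.86. TDO2 ranked first in High-Low 1, High-Low 3 and 2×Trp 3, and QPRT first in the other libraries.

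The summed level of the 9 genes was 365, 262 and 279 FPKM in High-Low and 278, 337 and 401 FPKM in 2×Trp. TDO2 supplied 33.9% of it in High-Low 1, 26.4% in High-Low 3 and 12% in High-Low 2, against 11.9%, 26.2% and 37.9% in the 2×Trp libraries. QPRT supplied 13.4%, 33.1% and 21.1% in High-Low and 26.8%, 28.9% and 17.8% in 2×Trp. KMO held between 6.78% and 18.7% of the sum, while ACMSD held at most 1.51% and KYNU at most 0.557%.

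**Figure D2:**
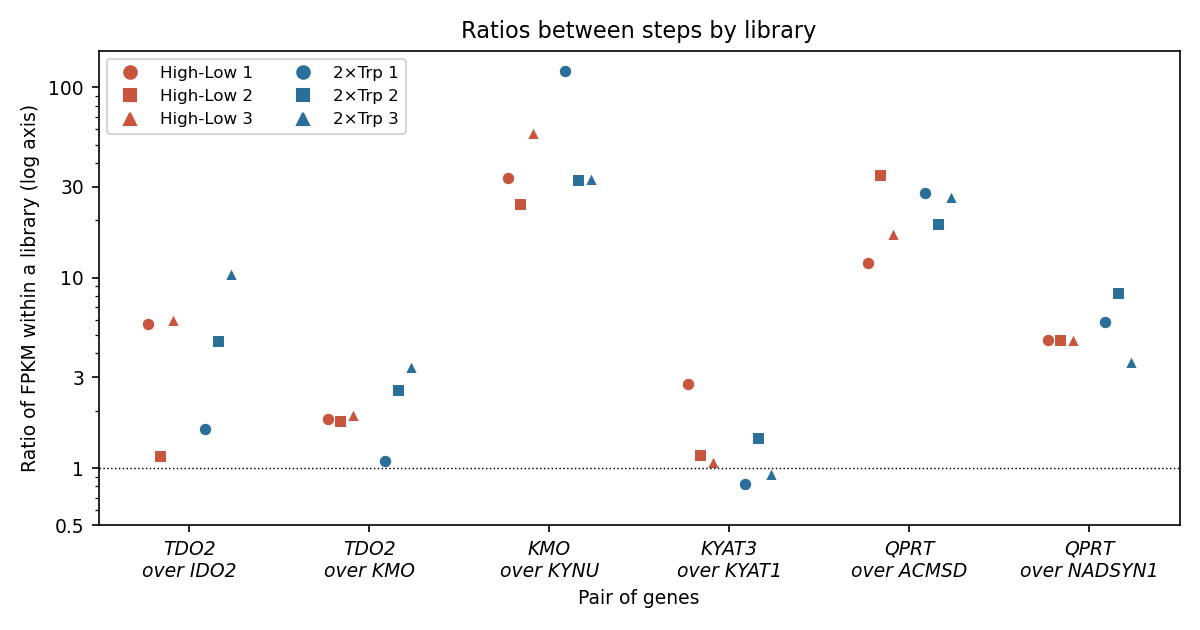
Ratios of FPKM between pairs of the 9 genes within each library (log axis, dotted line at 1), with High-Low (red) left of 2×Trp (blue) and marker shape for the library number. TDO2 over IDO2 spans 1.16 to 10.5 and QPRT over ACMSD 11.9 to 34.4, with overlapping groups in each pair shown.

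No gene of the route passed the test between maternal diets. Of the 9 genes 0 passed an adjusted p of 0.05 in limma (adjusted over 10901 genes, smallest adjusted p = 0.998), and 0 reached an unadjusted p under 0.05. Over all genes tested, 0.00917% passed the adjusted threshold and 3.16% the unadjusted one. The groups were free of overlap for 0 of the 9 genes, against 7.18% of all genes tested. The log2 fold change was positive for 4 of the 9 and negative for 5, and its median was -0.015, beside -0.004 over all genes tested.

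KYAT1 had the smallest p of the 9. It averaged 32.1 ± 8.01 FPKM in High-Low and 46.3 ± 12.3 FPKM in 2×Trp (SD, n = 3 each), a log2 fold change of -0.51 (SE 0.28, limma unadjusted p = 0.115, adjusted p = 0.998). QPRT averaged 64.8 ± 19.6 FPKM and 81.1 ± 14.2 FPKM in the same order, at -0.35 (SE 0.26). KMO and ACMSD had log2 fold changes of 0.001 and -0.015, and KYAT3 0.029. TDO2 stood at -0.21 (SE 0.65), NADSYN1 at -0.09, IDO2 at 0.11 and KYNU at 0.17, where a pseudocount of 0.1 in place of 1 gave KYNU 0.40. The 95% interval of the fold was 0.301 to 2.47 for TDO2, 0.482 to 2.08 for KMO and 0.442 to 1.12 for KYAT1. For KYAT3, the tightest of the 9, it was 0.715 to 1.46. For QPRT it was 0.516 to 1.20 and for ACMSD 0.628 to 1.56. QPRT was at -0.57 without High-Low 2 (limma unadjusted p = 0.0299, adjusted p = 0.360) and at -0.17 without High-Low 1 (unadjusted p = 0.559). KYAT1 was at -0.73 without 2×Trp 2 (limma unadjusted p = 0.0404, adjusted p = 0.999) and at -0.29 without High-Low 1 (unadjusted p = 0.341). Leaving out 1 library turned the sign of 7 of the 9 genes, KYAT1 and QPRT being the exceptions. KMO, KYNU, KYAT3 and NADSYN1 turned without High-Low 1, where KMO stood at -0.45. TDO2, IDO2 and ACMSD turned without High-Low 2, where TDO2 stood at 0.31, and KMO turned without High-Low 3. KMO and KYNU turned without 2×Trp 1, KMO and ACMSD without 2×Trp 2, and TDO2, IDO2 and NADSYN1 without 2×Trp 3.

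**Figure D3:**
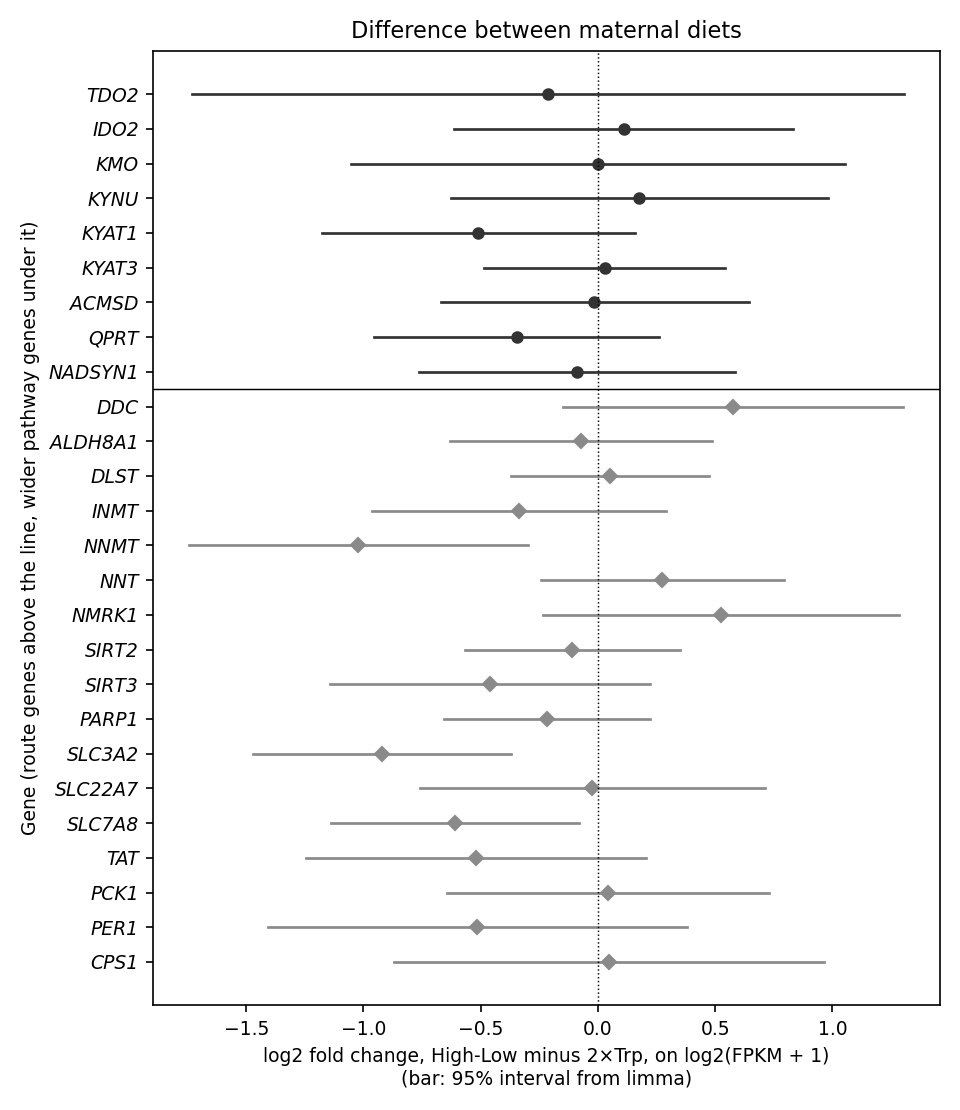
Log2 fold changes, High-Low minus 2×Trp, on log2(FPKM + 1) with 95% intervals from limma for the 9 genes (circles) and for named genes of the wider pathway (diamonds). All 9 intervals of the route include 0, and those of NNMT, SLC3A2 and SLC7A8 do not, though none of these 3 passed the adjusted threshold.

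Ratios between steps of the route, which do not depend on how a library is scaled except through the pseudocount, did not separate the diets either. ACMSD and QPRT act before and after quinolinate forms. Their log2 ratio, ACMSD over QPRT, averaged -3.89 ± 0.69 in High-Low and -4.22 ± 0.18 in 2×Trp (SD, n = 3 each). The difference was 0.33. Its exact permutation p was 0.6, two-sided, where 0.1 is the smallest that 3 against 3 allows. KYAT1 over KMO, which both take kynurenine as a substrate, as KYAT3 does too, averaged -0.20 ± 1.26 in High-Low and 0.31 ± 0.50 in 2×Trp (exact permutation p = 0.7). KYNU over KMO differed by 0.17 (exact permutation p = 0.8), TDO2 over KMO by -0.21 (exact permutation p = 0.7) and NADSYN1 over QPRT by 0.26 (exact permutation p = 0.7). Adjusted over these 5 ratios by the Benjamini-Hochberg method, every exact permutation p was 0.8. The sign of the difference turned without 1 library for each of these except ACMSD over QPRT.

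Libraries of the same diet differed widely in TDO2 and KMO, and the genes of the route did not move as a unit. Within diets the SD of log2(FPKM + 1) was 0.70 for KMO, and 8.96% of the genes tested had a larger one. For the genes of the route other than TDO2 and KMO, that share ran from 23.9% (KYNU) to 67.3% (KYAT3). TDO2 stood 0.79 above its own mean in High-Low 1 and 1.16 under it in High-Low 2 (log2(FPKM + 1) deviations of 0.79 and -1.16), and KMO deviated by 0.90 and -0.99. In High-Low 1, KYNU, KYAT3 and ACMSD were also above their means, while KYAT1 deviated by -0.69, QPRT by -0.53 and NADSYN1 by -0.39. High-Low 2 showed the reverse for TDO2, KMO, KYNU, KYAT3, ACMSD, QPRT and NADSYN1, whereas KYAT1 stayed near its mean at -0.08 and IDO2 was above its mean in both. In 2×Trp 1, TDO2 and KYNU deviated by -1.08 and -0.63 and KYAT1 by 0.58. In 2×Trp 3, TDO2, KYAT1 and NADSYN1 were all above their means, at 1.08, 0.37 and 0.48.

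**Figure D4:**
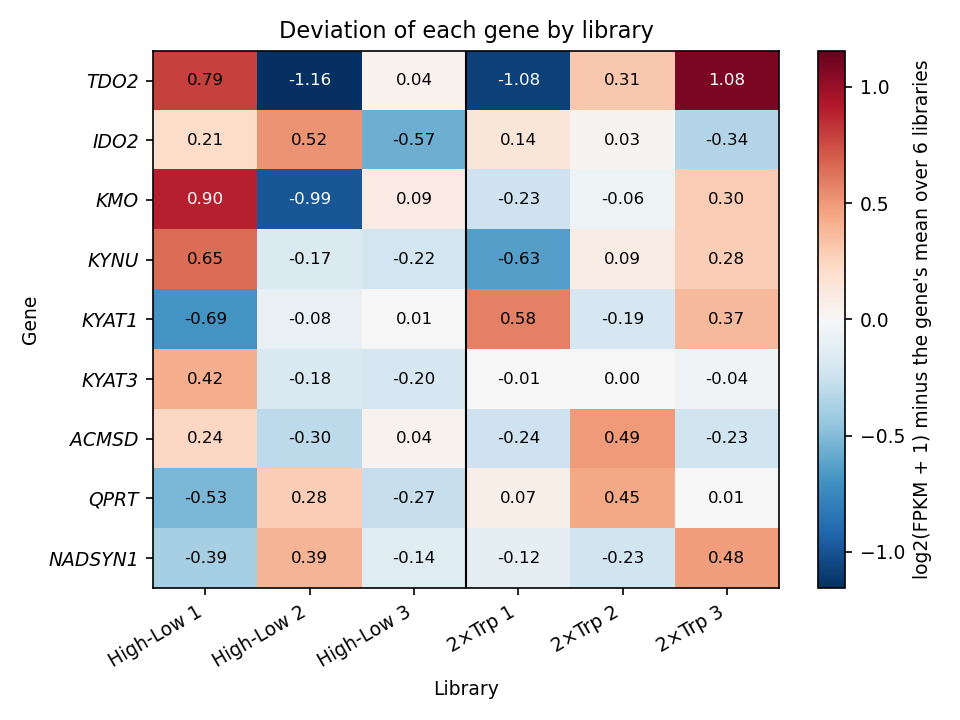
Deviation of log2(FPKM + 1) from each gene's mean over the 6 libraries, with genes in rows and libraries in columns (3 High-Low, then 3 2×Trp). TDO2 and KMO are above their means in High-Low 1, at 0.79 and 0.90, and under them in High-Low 2, at -1.16 and -0.99.

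Among the 36 pairs of genes, Pearson's r of log2(FPKM + 1) over the 6 libraries was positive for 16 and negative for 20, with a median of -0.07. An absolute r of 0.8 or more was reached by 2 pairs, or 5.56%, beside 9.28% of all pairs of genes tested, and the median absolute r was 0.47 beside 0.41. TDO2 and KMO had r = 0.83 (exact permutation p = 0.0278) and Spearman's rho = 0.89 (exact permutation p = 0.0333). TDO2 and KYNU had r = 0.82 (exact permutation p = 0.0514) and rho = 0.77 (exact permutation p = 0.103). Adjusted over the 36 pairs, 0 passed (both pairs adjusted p = 0.614 for r and 0.746 for rho, exact permutation). Within diets, as deviations from the group means, r was 0.83 and 0.88 for these pairs. Without High-Low 2 and 2×Trp 1, the libraries farthest from the median of TDO2, it was 0.57 and 0.77, so the relation with KMO rests in part on those libraries. The most negative pairs were KMO with QPRT and ACMSD with NADSYN1, both at r = -0.74 (exact permutation p = 0.0944 and 0.113, rho = -0.77 with p = 0.103 for each). Without the 2 libraries farthest from the median of KMO and of ACMSD, respectively, they were at -0.36 and -0.62.

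The signs of r fell into a pattern that was picked after the values were seen. TDO2, KMO, KYNU, KYAT3 and ACMSD were positively related in 10 of their 10 pairs, with r from 0.45 to 0.83. KYAT1, QPRT and NADSYN1 were positively related in 3 of 3, and between these sets r was negative in 15 of 15 pairs, down to -0.74. These signs were the same with libraries scaled to their FPKM totals and within diets. For each pair, the 2 libraries farthest from the median of its earlier gene in route order were then left out. Without them r stayed positive in 7 of 10 and 2 of 3 pairs and was positive in 7 of the 15 across the sets. These counts may depend on which gene of a pair set the median. IDO2 belonged to neither set. With the first principal component of all genes tested, described after the heat map of r, the 5 genes of the first set had positive r. The 3 of the second set had negative r with it, and so did IDO2. That component was computed from the same 6 libraries, so it is no separate evidence for the split.

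**Figure D5:**
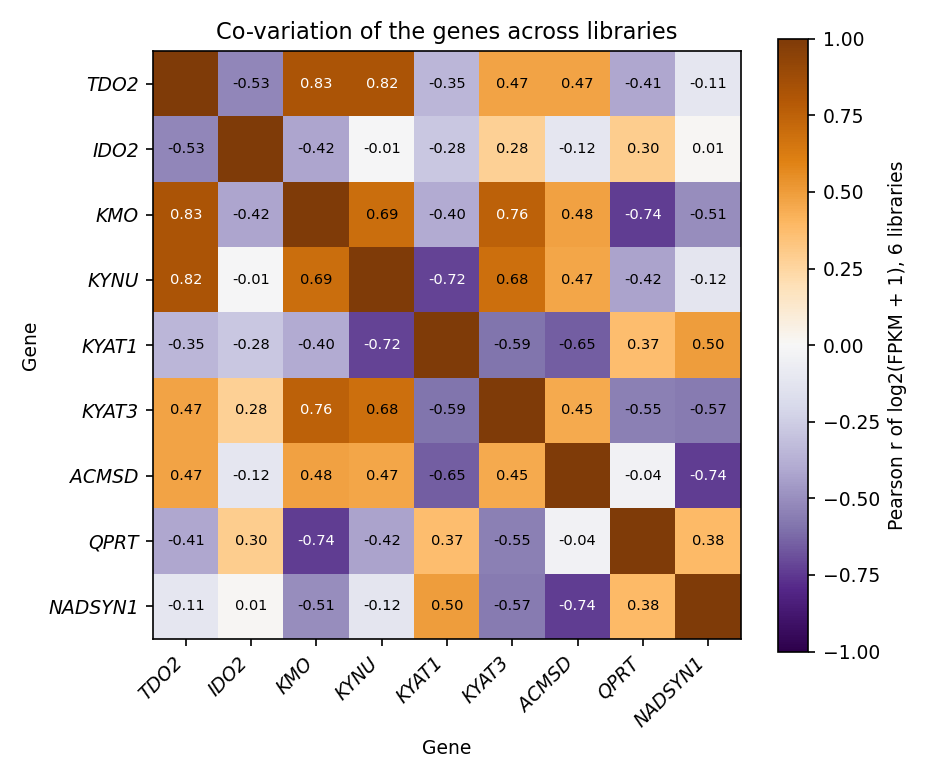
Pearson's r of log2(FPKM + 1) over 6 libraries for each pair of the 9 genes, with genes in route order on both axes. TDO2, KMO, KYNU, KYAT3 and ACMSD are positive with each other, KYAT1, QPRT and NADSYN1 are positive with each other, and the pairs across these sets are negative, while IDO2 is in neither.

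High-Low 1 and High-Low 2 lay at the ends of the whole profile as well. The first principal component of the 10901 genes tested, to which the 9 genes contribute, held 36.1% of the variance and placed High-Low 1 at 46.5 and High-Low 2 at -38.6. KMO followed it with r = 0.93 (exact permutation p = 0.0125) and rho = 0.94 (exact permutation p = 0.0167), at an adjusted p of 0.113 for r over the 9 genes. Without those 2 libraries r was 0.64. QPRT had r = -0.80 (exact permutation p = 0.0583) and rho = -0.83 (exact permutation p = 0.0583), with r = -0.47 without them. TDO2, KYNU, KYAT3 and ACMSD had r of 0.59 to 0.75 with it (exact permutation p = 0.0792 to 0.211, rho 0.26 to 0.71), and KYAT1 and NADSYN1 had -0.62 and -0.61 (exact permutation p = 0.178 and 0.212, rho -0.37 and -0.54). IDO2 had r of -0.40 (exact permutation p = 0.419, rho -0.43). Without High-Low 1 and High-Low 2, IDO2 was at -0.90, KYAT3 at -0.83 and NADSYN1 at 0.034. Neutrophil and granulocyte precursor markers (5 of 7 matched, 0 at 0 in every library) summed to 30.2, 98.2 and 36.8 FPKM in High-Low and to 24.5, 29.2 and 34.8 FPKM in 2×Trp, so that High-Low 2, lowest in TDO2 and KMO, was highest in them. The 6 matched erythroid markers of 7 summed to 1816, 7197 and 4405 FPKM in High-Low and to 15890, 6170 and 15370 FPKM in 2×Trp, lowest in High-Low 1. High-Low 1 was also the lowest of the 6 libraries in the summed endothelial (56.6 FPKM), macrophage (246.5 FPKM), stellate (58.0 FPKM, 5 of 6 matched) and lymphocyte (1.88 FPKM, 5 of 7 matched) markers. Its hepatocyte markers had the highest mean log2 deviation, 0.50, where the other libraries ran from -0.29 to 0.11. Their sum was not the highest, at 53520 FPKM against 65290 FPKM in High-Low 2 and 59330 FPKM in 2×Trp 2. The 2 matched bile duct markers of 4 summed to 7.12 FPKM in High-Low 1, where the 6 libraries ran from 4.23 to 7.45 FPKM. The part of these cells in the levels of the route was not tested.

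The genes most like TDO2 across the 6 libraries, among 6523 other tested genes with a symbol, were PSMD5 (r = 0.986), WDR19 (0.982), GHSR (0.979), SMNDC1 (0.974) and HSDL2 (0.970). HSDL2, a hydroxysteroid dehydrogenase-like protein, had 72.9, 26.6 and 50.2 FPKM in High-Low and 21.3, 53.1 and 67.5 FPKM in 2×Trp, low in the same libraries as TDO2. An r of 0.95 or more with TDO2 was found for 14 of the genes, or 0.215%. The mean deviation of the 9 genes was 0.18, -0.19 and -0.13 in High-Low and -0.17, 0.10 and 0.21 in 2×Trp. Most like it were LGMN (r = 0.981), PGRMC1 (0.970), CAT (0.961), WDR33 (0.961) and THOC1 (0.954). CAT, the peroxisomal catalase, had 331, 219 and 250 FPKM in High-Low and 246, 346 and 419 FPKM in 2×Trp.

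Of the wider pathway, 57 symbols were listed, 38 were matched to an identifier and 31 were tested, 14 with a positive log2 fold change and 17 with a negative one. Their median was -0.06 and 0 passed the adjusted threshold in limma. An unadjusted p under 0.05 was found for 3 of the 31 (NNMT, SLC3A2 and SLC7A8), or 9.68%, beside 3.16% of all genes tested. The groups did not overlap for the same 3 genes, near the 7.18% of all genes tested. Of the other kynurenine and tryptophan enzymes, 8 of 13 were matched and 6 tested, 3 positive and 3 negative. AFMID, which acts after TDO2, and HAAO, which acts after KYNU, had no identifier in the symbol table and were not analysed here. AADAT, another kynurenine aminotransferase, was listed at 0 in all libraries. ALDH8A1, which oxidises the product of ACMSD, had 25.3 ± 6.75 FPKM in High-Low and 26.1 ± 3.19 FPKM in 2×Trp, and DLST, a subunit of the oxoglutarate dehydrogenase complex, 36.4 ± 3.54 and 35.1 ± 3.46 FPKM (SD, n = 3 each). INMT and DDC, which act on tryptamine and on aromatic amino acids, had 214 ± 61.2 against 267 ± 55.0 FPKM and 55.5 ± 15.4 against 37.1 ± 12.1 FPKM, High-Low before 2×Trp.

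Salvage and later NAD steps had 7 of 12 symbols matched and 6 tested, 5 positive and 1 negative. NNMT, the negative one, methylates nicotinamide and so removes it from salvage. It had 80.3, 35.0 and 60.9 FPKM in High-Low, against 121, 121 and 101 FPKM in 2×Trp, and every High-Low library was under every 2×Trp library. On the log2 scale it differed by -1.02 (SE 0.31, limma unadjusted p = 0.012, adjusted p = 0.998). NNT, which couples NAD to NADP in mitochondria, had 22.5 ± 5.28 FPKM in High-Low and 18.1 ± 1.19 FPKM in 2×Trp, and the nicotinamide riboside kinase NMRK1 6.25 ± 0.830 and 4.30 ± 1.98 FPKM (SD, n = 3 each). NAMPT, the entry enzyme of nicotinamide salvage, had 3.36, 2.45 and 3.37 FPKM in High-Low and between 1.10 and 4.0 FPKM in 2×Trp, under QPRT in every library. Of the later NAD steps, NMNAT1 was listed at 0.0473 FPKM or less in every library and NMNAT2 at 0.457 to 1.46 FPKM. NMNAT3 had no identifier in the symbol table. NAMPT and these NMNAT genes were chosen after their values were seen.

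NAD consumers had 10 of 14 symbols matched and 8 tested, 2 positive and 6 negative. The mitochondrial deacylase SIRT3 had 22.3, 42.2 and 20.6 FPKM in High-Low and 42.4, 35.8 and 34.6 FPKM in 2×Trp. SIRT2 had 18.6 ± 0.599 FPKM in High-Low and 20.4 ± 3.82 FPKM in 2×Trp, and the DNA damage sensor PARP1 7.45 ± 0.951 and 8.78 ± 0.554 FPKM (SD, n = 3 each). Tryptophan and kynurenine transport had 5 of 6 symbols matched and 3 tested, all 3 negative. SLC3A2, the heavy chain that large neutral amino acid transporters need, had 17.6, 25.8 and 22.9 FPKM in High-Low, against 53.0, 35.1 and 40.4 FPKM in 2×Trp. SLC7A8, a light chain that pairs with it, had 1.86, 2.13 and 1.77 FPKM in High-Low and 2.58, 3.51 and 4.46 FPKM in 2×Trp. Both were lower in every High-Low library than in any 2×Trp library, at log2 fold changes of -0.92 (SE 0.23) and -0.61 (SE 0.23), and both had an adjusted p of 0.998 in limma. The summed endothelial markers separated the diets in the same direction, as given above, and the share of FPKM from mitochondrial genes in the opposite one, at 10.02%, 5.83% and 6.79% in High-Low and 3.48%, 5.2% and 4.16% in 2×Trp. Their part in NNMT, SLC3A2 and SLC7A8 was not tested. The limma unadjusted p was 0.00517 for SLC3A2 and 0.0292 for SLC7A8. With 1 library left out it stayed at 0.0215 or less for SLC3A2. For SLC7A8 it reached 0.114 without 2×Trp 3, and it was 0.0633 with the replicate block. SLC22A7, a hepatic organic anion transporter, had 440 ± 74.6 FPKM in High-Low and 467 ± 176 FPKM in 2×Trp (SD, n = 3 each).

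TDO2 is known in rodents as a target of glucocorticoids. Genes that respond to glucocorticoids or fasting had 8 of 12 symbols matched, all 8 tested, with 4 positive and 4 negative. TAT, the tyrosine aminotransferase, had 215, 175 and 126 FPKM in High-Low and 256, 328 and 167 FPKM in 2×Trp, and its r with TDO2 was -0.08 (exact permutation p = 0.872, rho = -0.09 with p = 0.919, and r = 0.07 without High-Low 2 and 2×Trp 1). Over the 8 genes r with TDO2 ran from -0.50 for PCK1 (exact permutation p = 0.299, rho = -0.54 with p = 0.297) to 0.89 for CPS1 (exact permutation p = 0.0181, rho = 0.89 with p = 0.0333, r = 0.60 without High-Low 2 and 2×Trp 1). NR3C1, the glucocorticoid receptor, stood at 0.57 and PER1 at -0.46 (exact permutation p = 0.233 and 0.346, rho = 0.54 and -0.60), and 0 of the 8 passed adjustment over the 16 relations computed with TDO2 and KMO (smallest adjusted p = 0.144, exact permutation). PCK1, of glucose synthesis, had 401 ± 75.0 FPKM in High-Low and 400.1 ± 127 FPKM in 2×Trp, and the clock gene PER1 25.9 ± 14.4 and 34.1 ± 4.88 FPKM (SD, n = 3 each).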

How the data were processed

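Liver RNA of newborn piglets was extracted with Trizol and made into TruSeq libraries, per the labels' protocols. The submitters' processing notes list the tools Bowtie2 2.2.3 and TopHat2 2.0.12, also HTSeq 0.6.1, and susScr3 as the build. No source used here states the quantification step, annotation or strand setting. The authors' deposited values, in 1 table per library, were read as FPKM from the values themselves: they are not whole numbers, and their totals differ between libraries. An exact 0 may be a failed estimate, since 59 genes had 20 FPKM or more in 1 library and 0 in another. Symbols came from a table naming 11804 of 25322 Ensembl identifiers.

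The 9 members and the lists were chosen with earlier results of these data known. A filter of 1 FPKM in at least 3 libraries left 10901 genes, all 9 members among them. They were fitted together by limma 3.58.1 (R 4.3.3, variance trend, robust) on log2(FPKM + 1), so fold changes understate those of low genes, KYNU above all. P-values were adjusted over all genes tested by the Benjamini-Hochberg method at 0.05. Ratios and correlations used exact permutation in Python 3.11.15. Genes named beside the 9 were list members averaging 10 FPKM or more, filled up to 3 per list by smallest p, and the 5 genes most correlated with TDO2 or with the mean of the 9. IDO1, AADAT, NR3C1, NAMPT and the NMNAT genes were named outside this rule. The fit was tested on simulated data. Alternatives were other scalings, filters and pseudocount, a replicate block, and leaving out each library. No sequence is shown, since none was used here.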

Additional observations from a re-analysis of the deposited data

How the results depend on the processing

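Depth is unknown and each diet had 3 libraries, which limits the precision of every fold change given here. Scaling moved the median of all genes by less than 0.1. None of the 9 genes passed the adjusted threshold in an alternative in which it was tested. KYNU and ACMSD had no value with the filter at 5 FPKM, and KYNU none with scaling to the FPKM total, since they did not pass the filter there. Scaling to the FPKM total, with or without the 20 most abundant genes, called 1 gene lower in place of 0, and leaving out single replicates called 1 to 2 genes higher in place of 1, with 2 only without 2×Trp replicate 3. None of these calls is in the route. The gene lower under scaling is the unnamed feature Novel00135, and Novel01392 was higher under each of these settings, both named after their values were seen. The other gene called higher without 2×Trp replicate 3 is not named here. At an unadjusted p under 0.05, 136 genes were higher and 209 lower in limma, against 623 and 789 without High-Low replicate 2. The sign of ACMSD turned to 0.002 and 0.013 under these scalings, that of SLC22A7 to 0.003 under the second, and that of KMO to -0.004 with a pseudocount of 0.1. The cause was not tested.

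Leaving out single replicates gave log2 fold changes of -0.80 to 0.31 for TDO2, -0.12 to 0.42 for IDO2, -0.45 to 0.50 for KMO, -0.10 to 0.36 for KYNU, -0.17 to 0.14 for KYAT3, -0.14 to 0.23 for ACMSD and -0.31 to 0.13 for NADSYN1. KYAT1 and QPRT kept their sign, at -0.73 to -0.29 and -0.57 to -0.17. Ranges that crossed 0 in the wider pathway were -0.26 to 0.12 for ALDH8A1, -0.03 to 0.12 for DLST, -0.22 to 0.028 for SIRT2, -0.35 to 0.23 for SLC22A7, -0.25 to 0.23 for PCK1 and -0.32 to 0.45 for CPS1. For the ratios they were -0.19 to 0.37 (KYNU over KMO), -1.09 to 0.16 (KYAT1 over KMO), -0.69 to 0.13 (TDO2 over KMO) and -0.02 to 0.56 (NADSYN1 over QPRT).

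The replicate numbers did not pair the libraries: same-numbered deviations correlated at -0.22, -0.011 and 0.032 over genes, and no library correlated best with its own number. With the replicate number as a block, 1 gene was higher and 0 lower, as without it, and no call among the genes named changed.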

Other observations

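CPS1, the entry enzyme of the urea cycle and one of the listed glucocorticoid and fasting genes, ranked the 6 libraries in the same order as KMO. It had 435, 149 and 273 FPKM in High-Low libraries 1, 2 and 3 and 197, 259 and 313 FPKM in 2×Trp libraries 1, 2 and 3. Pearson's r with KMO was 0.985 (exact permutation p = 0.00278) and Spearman's rho was 1.0 (exact permutation p = 0.00278), and r was 0.95 without High-Low 1 and High-Low 2. Over the 16 relations of TDO2 and KMO with the glucocorticoid and fasting genes, a family computed after the members' values were seen, the adjusted p was 0.0445 for r and for rho (exact permutation). For rho, 0.00278 is the smallest exact permutation p that 6 libraries allow. Whether the adjusted p lay under 0.05 therefore depended on how many relations were adjusted over. Within diets r was 0.99. Of 10900 other tested genes, 4 were at least as alike to KMO, CPS1 included, or 0.0367%.

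In High-Low, QPRT and NADSYN1, the first and the last enzyme between quinolinate and NAD, kept an almost fixed ratio. QPRT over NADSYN1 was 4.70, 4.68 and 4.70 in the High-Low libraries and 5.85, 8.35 and 3.60 in the 2×Trp libraries, while QPRT itself spanned 48.9 to 86.6 FPKM in High-Low. TDO2 over KMO was 1.81, 1.77 and 1.90 in High-Low and 1.09, 2.56 and 3.40 in 2×Trp. These pairs were picked after the values were seen: they are the 2 of 36 with an SD under 0.1 on the log2 scale in High-Low, where 2×Trp has 0. Over all 36 pairs the SD was smaller in High-Low for 15, and its median was larger in High-Low, at 0.695, than in 2×Trp, at 0.51. The difference in spread was not tested. The share of all pairs of tested genes under that limit was not computed, and each SD rests on 3 libraries.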
